A study of Mus musculus with 4 samples.

Results

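The cytosolic ribosomal protein genes are described here in the sublingual gland, a mainly mucous salivary gland, of female Nkx2.3-/- mice on the C57BL/6J background. The genes were chosen by symbol alone: names made of Rpl or Rps and a number, with the paralog endings a, x, y and l, together with Rplp0, Rplp1, Rplp2 and Rpsa. They are 84 of the 24411 genes in the deposited count table, 51 of the large subunit and 33 of the small subunit. RNA sequencing gave 2 libraries at 32 weeks of age (replicates 3 and 4) and 2 libraries at 8 weeks (replicates 1 and 2). All 4 libraries carry the deletion of Nkx2.3, a homeobox gene, and no wild-type gland was analysed here, so the only comparison the design allows is 32 weeks with 8 weeks inside the knockout.

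A ribosome is built from a small subunit, which reads the mRNA, and a large subunit, which joins the amino acids, and each holds ribosomal RNA and a fixed set of proteins. Most of the proteins are needed in equal numbers. In mammals most ribosomal protein mRNAs begin with a short run of C and T, the 5′ terminal oligopyrimidine tract, through which their translation is controlled together. A secretory gland spends much of its translation on saliva proteins made at the endoplasmic reticulum, and its ribosomal protein mRNAs are among its most abundant housekeeping transcripts.

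Promoter windows were read for the members that a RefSeq table of the GRCm38.p6 build holds, 63 of the 84. In these windows, from 50 bases before the annotated start to 30 bases after it and on the gene's strand, a tract was scored as a C followed by C or T only, at least 8 bases in all. The tract was found in 40 of the 63 members (63.5%), against 27.2% of the 27025 genes in the table. The sequence CCGGAA, the core bound by ETS factors, was searched on both strands of a longer stretch. That stretch ran from 250 bases before the annotated start to 50 bases after it. CCGGAA was present there in 35 members (55.6%), against 16.7% of all genes. The windows of 8 members are printed 5′ to 3′ with the tract in capitals. The first 4 belong to genes whose mRNA was lowest in 8-week replicate 2 by a wide margin, and the last 4 to genes with little or no such deficit.
Rpl35a, chr16:33056432-33056511, plus strand: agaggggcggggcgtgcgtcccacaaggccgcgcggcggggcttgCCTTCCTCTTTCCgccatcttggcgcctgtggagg
Rpl13a, chr7:45128716-45128795, minus strand: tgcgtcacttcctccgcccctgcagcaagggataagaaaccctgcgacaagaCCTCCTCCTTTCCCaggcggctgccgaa
Rps12, chr10:23787180-23787259, minus strand: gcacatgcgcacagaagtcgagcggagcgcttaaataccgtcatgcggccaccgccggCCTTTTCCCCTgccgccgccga
Rpl12, chr2:32961662-32961741, plus strand: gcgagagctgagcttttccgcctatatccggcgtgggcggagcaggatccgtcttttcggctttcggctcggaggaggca
Rpl15, chr14:18270957-18271036, minus strand: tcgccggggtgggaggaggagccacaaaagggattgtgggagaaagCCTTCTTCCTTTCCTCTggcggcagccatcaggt
Rps6, chr4:86857338-86857417, minus strand: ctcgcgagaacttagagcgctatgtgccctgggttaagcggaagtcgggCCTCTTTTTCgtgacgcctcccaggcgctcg
Rps3a1, chr3:86142639-86142718, minus strand: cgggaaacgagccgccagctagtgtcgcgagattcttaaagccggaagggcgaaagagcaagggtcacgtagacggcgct
Rpl7l1, chr17:46782627-46782706, minus strand: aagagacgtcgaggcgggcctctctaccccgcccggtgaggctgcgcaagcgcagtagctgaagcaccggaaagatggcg
Tracts stand in both groups of printed windows, and the Rpl12 window has none. A match is a description of the letters only, and a window without one says nothing of the transcript's true start.

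The 4 libraries held 16484772 and 16111122 counts at 32 weeks (replicates 3 and 4), against 12925869 and 14265485 counts at 8 weeks (replicates 1 and 2). The 10 most abundant genes, mainly secretory products, took between 46.6% and 55.4% of each library. The summed level of the demilune genes Dcpp1, Dcpp2, Dcpp3 and the serous gene Bpifa2 was 461100 and 182800 CPM (read counts relative to the library total, scaled by TMM) at 32 weeks, against 160800 and 345800 CPM at 8 weeks, so the libraries of 1 age differ widely in their secretory load. Acinar markers were abundant in every library, with the mucous list (Muc19, Smgc, Galnt12, Agr2 and Creb3l1) at 63110 and 143400 CPM at 32 weeks, against 155000 and 87620 CPM at 8 weeks. In a list of 4 submandibular and parotid products, the 3 kept by the low-count filter summed to 14.4 and 4.25 CPM at 32 weeks, against 360 and 214 CPM at 8 weeks. Nothing in the labels ties each library to its own mouse, and a p-value here reflects library-to-library spread that may be technical.

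Ribosomal protein mRNAs took 3.59% (exact Clopper-Pearson 95% interval 3.58 to 3.601) and 4.66% (4.65 to 4.67) of the counts in 32-week replicates 3 and 4, against 4.40% (4.39 to 4.41) in 8-week replicate 1 and 3.06% (3.05 to 3.07) in 8-week replicate 2. The libraries of the 2 ages thus alternated, from 8-week replicate 2 through 32-week replicate 3 and 8-week replicate 1 to 32-week replicate 4, and the highest share was 1.52 times the lowest. The intervals cover counting error only and are far narrower than the gap between the libraries of 1 age. Large subunit mRNAs took 2.21% and 2.85% of counts at 32 weeks, against 2.71% and 1.90% at 8 weeks. Small subunit mRNAs took 1.38% and 1.81% at 32 weeks, against 1.68% and 1.16% at 8 weeks, so both subunits put the libraries in 1 order.

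The balance between the subunits hardly moved. Small subunit counts were 0.626 and 0.637 times the large subunit counts at 32 weeks, against 0.620 and 0.613 times at 8 weeks, a highest over lowest of 1.04. The ages did not overlap in this ratio, but with 2 libraries against 2 the smallest exact two-sided permutation p is 0.333 and no single value can pass.

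**Figure D1:**
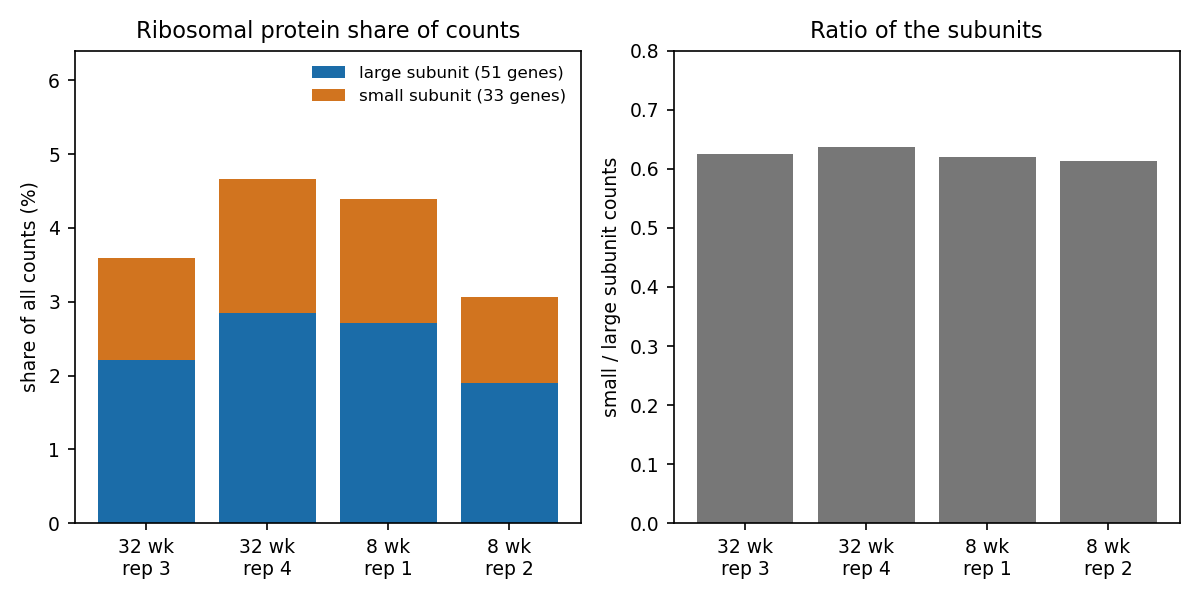
Left, the percent of all counts in each library that fell on large subunit and small subunit genes, with 32-week libraries left of 8-week libraries. Right, small subunit counts over large subunit counts. Exact intervals are too narrow to see at this scale. The summed share runs between 3.06% and 4.66%, while the ratio stays between 0.613 and 0.637.

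A share of counts also moves with the few secretory mRNAs that fill the libraries. On the TMM scale the members summed to 40930 and 43690 CPM at 32 weeks, against 41930 and 30120 CPM at 8 weeks. After this scaling 3 libraries lay close together and 8-week replicate 2 lay apart, 1.45-fold below the highest. Large subunit genes summed to 25180 and 26690 CPM at 32 weeks, against 25880 and 18680 CPM at 8 weeks. Small subunit genes summed to 15750 and 17000 CPM at 32 weeks, against 16050 and 11440 CPM at 8 weeks. In whole-gland RNA, fewer cells of a type and less RNA per cell cannot be told apart.

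The filter on low counts kept 77 members, 45 large and 32 small, and the 7 left out are described further on. For 72 of the 77 the lowest of the 4 libraries was 8-week replicate 2 (43 large, 29 small), while 35.3% of all 12810 genes tested had their lowest value there. The highest library was 32-week replicate 4 for 39 members (20.6% of all genes), 8-week replicate 1 for 22, 32-week replicate 3 for 13 and 8-week replicate 2 for 3. The most frequent order, shared by 21 members (12 large, 9 small) and 6.23% of all genes, was that of the share of counts, with 8-week replicate 2 lowest and then 32-week replicate 3, 8-week replicate 1 and 32-week replicate 4. A second order, with both 8-week libraries under both 32-week libraries and 32-week replicate 4 highest, held 17 members and 5.09% of all genes. In another, 13 members had 8-week replicate 1 highest, followed by 32-week replicates 3 and 4, an order found in 5.96% of all genes, and 11 of these 13 were large subunit genes. The median member stood 0.10 and 0.16 above its own 4-library mean on the log2 scale in 32-week replicates 3 and 4, against 0.12 above it in 8-week replicate 1 and 0.37 below it in 8-week replicate 2 (-0.37). The medians of all genes lay within 0.01 of 0.

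**Figure D2:**
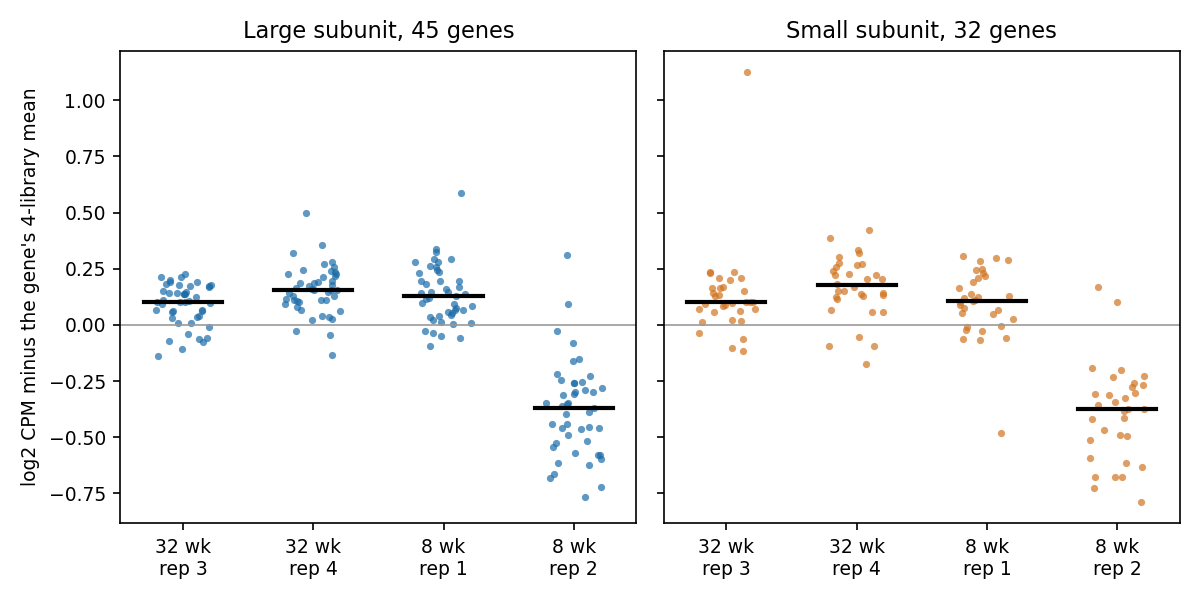
Each point is 1 ribosomal protein gene in 1 library, as its log2 CPM minus the gene's own mean over the 4 libraries, with black bars for medians. In both subunits the 3 libraries on the left have medians between 0.10 and 0.18 and 8-week replicate 2 has a median of -0.37.

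The highest mRNA levels per length in the large subunit belonged to Rplp1, an acidic protein of the stalk that recruits elongation factors, and to Rpl32, Rpl36, Rpl38 and Rpl37a. Their means over the 4 libraries were 3408, 3003, 2055, 1527 and 1519 on a TPM-like scale, made from counts per kilobase of the longest coding transcript. In the small subunit the highest were Rps14, a platform protein, Rps23, which lies at the decoding centre, Rps29, Rps26 and Rps28, at 2601, 1861, 1839, 1507 and 1376 on that scale. With coding length in place of transcript length, 9 of these 10 were again among the 5 highest of their subunit, with Rpl37 in place of Rpl36. The order among them moved, with Rps29 (2484) above Rps14 (2298) in the small subunit. Rpl41 has no length in the annotation and was left out of the order.

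Rplp1 (NCBIM37 chromosome 9, 61761091 to 61762345, minus strand) stood at 1226 and 1821 CPM at 32 weeks, against 1448 and 853 CPM at 8 weeks. The highest library was of 32 weeks and the lowest of 8 weeks, but 8-week replicate 1 lay above 32-week replicate 3. Rps14 stood at 1373 and 1839 CPM at 32 weeks, against 1403 and 1111 CPM at 8 weeks, and Rpl32 at 1428 and 1322 CPM at 32 weeks, against 1325 and 1029 CPM at 8 weeks. All 3 were lowest in 8-week replicate 2, and Rplp1 and Rps14 also differed between the 32-week libraries, by 0.57 and 0.42 on the log2 scale.

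Between 32 weeks and 8 weeks no ribosomal protein gene passed edgeR's quasi-likelihood test, with adjusted p at least 0.999 for each of the 77, and 0 of the 12810 genes tested passed (0%). At an unadjusted p under 0.05 there were 174 genes, 1 of them a member, Rps4l. DESeq2 called 3 genes (0.0166%), limma-voom 0 (0%) and edgeR with total counts only 10 (0.0781%), none of them members. The fold changes of the members leaned upward without passing. Of the 77, 71 were positive (92.2%; 41 of 45 large and 30 of 32 small), against 48.3% of all genes. The median log2 fold change, 32 weeks over 8 weeks, was 0.24 over all members (0.235 in the large and 0.258 in the small subunit), against -0.01 for all genes. The median 95% interval of a single member reached 0.65 to either side, so a change of the size of these medians lies inside the error of each gene.

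This lean rested on 1 library. When 8-week replicate 2 was left out, large subunit genes had a median of 0.02 and small subunit genes one of 0.01, with 41 of 77 members positive, against 51.8% of all genes. Without 8-week replicate 1 the medians were 0.50 and 0.52, and without either 32-week replicate they lay between 0.21 and 0.30. When 8-week replicate 1 was left out, 285 genes were called (2.15%), and the single member among them was Rps2, which lies at the mRNA entry side of the small subunit, with a log2 fold change of 1.04 and an edgeR adjusted p of 0.0447. No member was called without 32-week replicate 3 (0.0837% of all genes), 32-week replicate 4 (0.13%) or 8-week replicate 2 (0.0455%). The fit without 8-week replicate 1 sets both 32-week libraries against 8-week replicate 2 alone and takes the lone library to vary as the 32-week libraries do.

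**Figure D3:**
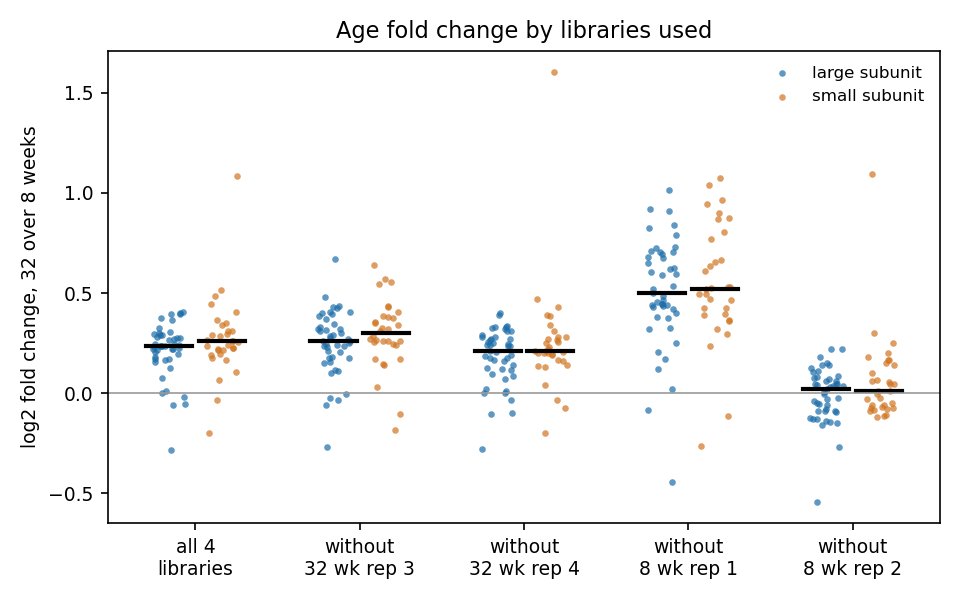
Log2 fold change, 32 weeks over 8 weeks, of each ribosomal protein gene with all 4 libraries and with each library left out in turn, large subunit left and small subunit right in each pair, black bars for medians. The medians are 0.235 and 0.258 with all libraries and 0.02 and 0.01 without 8-week replicate 2.

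Both 32-week libraries stood above both 8-week libraries for 26 members, 13 of each subunit, against 14.4% of all genes. The 4 small subunit genes with the highest fold changes were Rps4l, Rps12, Rps10 and Rps21. Rps12, a protein of the beak of the subunit (chromosome 10, 23504990 to 23507015, minus strand), stood at 514 and 549 CPM at 32 weeks, against 471 and 272 CPM at 8 weeks. The ages did not overlap, and the distance between the 8-week libraries was larger than that between 8-week replicate 1 and either 32-week library. Its log2 fold change was 0.52 (95% interval -0.21 to 1.24, edgeR adjusted p = 0.999) and 0.18 without 8-week replicate 2. Rps10, also of the beak, stood at 166 and 180 CPM at 32 weeks, against 155 and 92.6 CPM at 8 weeks, and Rps21 at 361 and 478 CPM at 32 weeks, against 342 and 275 CPM at 8 weeks. The log2 fold change of Rps21 was 0.44, or 0.30 without 8-week replicate 2 and 0.23 without 32-week replicate 4. That of Rps10 was 0.48, or 0.17 without 8-week replicate 2 and 0.43 without 32-week replicate 4.

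In the large subunit the highest fold changes belonged to Rplp1, Rpl36, Rpl38 and Rpl12, at 0.41, 0.40, 0.40 and 0.40 on the log2 scale. Rpl36 stood at 765 and 780 CPM at 32 weeks, against 686 and 484 CPM at 8 weeks. Rpl38, whose loss causes skeletal defects in mice, stood at 648.5 CPM in both 32-week libraries, against 586 and 399 CPM at 8 weeks. For both genes the ages did not overlap, and without 8-week replicate 2 the fold changes were 0.18 and 0.15. Rpl12 (chromosome 2, 32817079 to 32820016, plus strand), at the base of the stalk, stood at 344 and 382 CPM at 32 weeks, against 371 and 180 CPM at 8 weeks. Here 8-week replicate 1 lay between the 32-week libraries, and without 8-week replicate 2 the fold change was -0.03. For Rplp1 it was 0.08, and it was 0.09 without 32-week replicate 4.

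The difference between the 2 libraries at 8 weeks was far wider than that between the 2 at 32 weeks. The median member stood 0.49 lower in 8-week replicate 2 than in 8-week replicate 1 on the log2 scale (median difference -0.49, large -0.50, small -0.43), against a median of 0.00 over all genes. The member median of 32-week replicate 4 minus replicate 3 was 0.06. The gap at 8 weeks exceeded 0.5 in 37 members (48.1%), against 18.6% of all genes, and 72 members were lower in replicate 2 at all, against 50.1% of all genes. At 32 weeks 69 members (89.6%) differed by less than 0.25 between the libraries, against 60.8% of all genes.

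**Figure D4:**
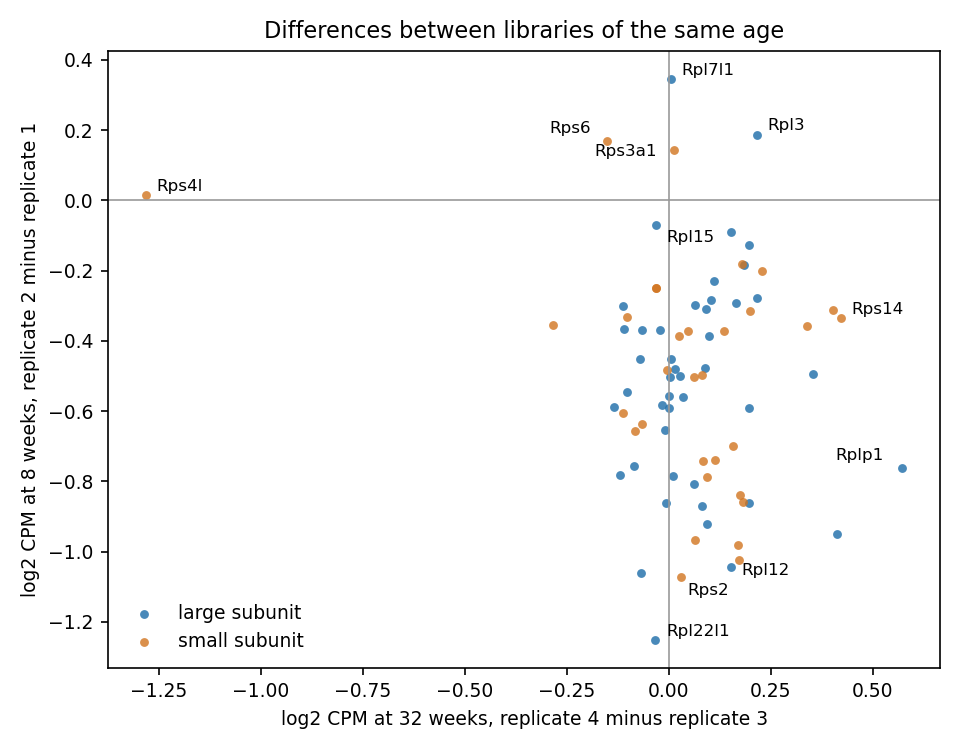
Each point is 1 ribosomal protein gene, placed by its log2 CPM in 32-week replicate 4 minus replicate 3 (horizontal) and in 8-week replicate 2 minus replicate 1 (vertical). Most points lie near 0 across and well under 0 down. The 5 points over 0 on the vertical axis are Rpl7l1, Rpl3, Rps6, Rps3a1 and Rps4l, and Rpl22l1 is lowest at -1.25.

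The widest gaps at 8 weeks, over 0.9 on the log2 scale, were found in 5 large and 4 small subunit genes. Rpl22l1, a paralog of Rpl22, stood at 124 and 121 CPM at 32 weeks, against 180 and 75.3 CPM at 8 weeks. Both 32-week libraries lay between the 8-week libraries. Rps2 (chromosome 17, 24855061 to 24858874, plus strand) stood at 262 and 268 CPM at 32 weeks, against 272 and 129 CPM at 8 weeks. Rpl35a, mutated in some patients with Diamond-Blackfan anaemia, stood at 279 and 266 CPM at 32 weeks, against 301 and 144 CPM at 8 weeks. In Rps2 and Rpl35a 3 libraries lay close together and 8-week replicate 2 alone was low. Others were Rpl12, Rpl5, Rpl13a, Rps15 and Rpsa, with differences between -1.04 (Rpl12) and -0.92 (Rpl13a). Rpl5, which joins Rpl11 and 5S ribosomal RNA in a particle that binds Mdm2, stood at 376 and 500.4 CPM at 32 weeks, against 490 and 254 CPM at 8 weeks. Its partner Rpl11 stood at 488 and 486 CPM at 32 weeks, against 534 and 294 CPM at 8 weeks, so both were lowest in the same library.

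A few members kept out of this pattern. Rpl3, which lies near the peptidyl transferase centre (chromosome 15, 79908211 to 79913836, minus strand), stood at 625 and 726 CPM at 32 weeks, against 631 and 718 CPM at 8 weeks, and its log2 fold change was 0.00 with an SE of 0.25. Rps6, the substrate of S6 kinase (chromosome 4, 86500564 to 86503316, minus strand), stood at 404 and 364 CPM at 32 weeks, against 371 and 417 CPM at 8 weeks. In both genes each age had 1 lower and 1 higher library. Rps3a1 stood at 217 and 219 CPM at 32 weeks, against 237 and 262 CPM at 8 weeks. Rpl7l1 (chromosome 17, 46910856 to 46919605, minus strand), an Rpl7 paralog, stood at 34.3 and 34.4 CPM at 32 weeks, against 36.8 and 46.8 CPM at 8 weeks. These were the 2 members with both 32-week libraries below both 8-week libraries, a pattern found in 14.2% of all genes, and their log2 fold changes of -0.20 and -0.28 did not pass (edgeR adjusted p = 0.999 for both). Rpl15 was nearly level, at 359 and 351 CPM at 32 weeks, against 369 and 351 CPM at 8 weeks.

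The remaining negative fold changes were those of Rpl4 and Rpl22l1, at -0.06 and -0.05. Rpl4, which lines the exit tunnel, stood at 1110 and 1180 CPM at 32 weeks, against 1386 and 995 CPM at 8 weeks. Its 32-week values lay between the 8-week values. Among small subunit genes, the lowest positive fold changes were 0.07 for Rps3, of the mRNA entry channel, and 0.105 for Rps7.

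The paralogs did not all follow their parent genes. Rpl22 stood at 206 and 236 CPM at 32 weeks, against 246 and 135 CPM at 8 weeks. It was lowest in 8-week replicate 2, and its paralog Rpl22l1 had the wider gap between the 8-week libraries. Rpl7 stood at 832 and 795 CPM at 32 weeks, against 840 and 651 CPM at 8 weeks, while Rpl7l1 was highest where Rpl7 was lowest. Rps4x, the X-linked parent, stood at 432.5 and 482 CPM at 32 weeks, against 478 and 295 CPM at 8 weeks.
Rps4l, which RefSeq lists as a transcribed pseudogene, had 244 and 118 counts at 32 weeks, against 75 and 81 counts at 8 weeks. That is 16.9 and 6.86 CPM at 32 weeks, against 5.54 and 5.59 CPM at 8 weeks. Its log2 fold change of 1.09 was the highest of any member (SE 0.41, edgeR adjusted p = 0.999). Without 32-week replicate 3 it was 0.31, so most of it rests on that library. Rps27l stood at 351 and 288 CPM at 32 weeks, against 318 and 248 CPM at 8 weeks. Its parent Rps27 was nearly absent from the table.

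The 7 members that did not pass the low-count filter are of 2 kinds. Rpl3l, Rpl10l and Rpl39l, paralogs known from muscle (Rpl3l) and testis (Rpl10l, Rpl39l), had 0 or 1 counts in every library. That is under the floor of 3 counts set here, which is 0.174 to 0.221 CPM. Rpl26, Rpl30, Rpl34 and Rps27 encode core ribosomal proteins, and yet they had almost no counts. Rpl26 had 0 counts in all 4 libraries. Rpl30 had 0 and 2 counts at 32 weeks, against 1 and 2 at 8 weeks, and Rpl34 had 1 and 3 at 32 weeks, against 2 and 4 at 8 weeks. Rps27 had 5 and 5 counts at 32 weeks, against 3 and 4 at 8 weeks. The sources used here do not give the authors' handling of reads with several matches in the genome, and these rows cannot be read as low mRNA levels.

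Ribosomal protein genes have many processed copies in the mouse genome, and their counts are uncertain to that extent. Of the 83 members with a coding sequence in the annotation, 72 had at least 1 other place in NCBIM37 that matched at least 95% of the bases over at least 90% of the sequence. The median was 5 such places and the most was 55, for Rpl21. Each search used the longest coding sequence annotated for the member, so copies of a shorter form could be missed. Rpl24, Rpl13a and Rps19, at 3153, 1272 and 639 coding bases, had 0 such places. A copy with at least 99% identity existed for 55 members, some of them abundant in the table, such as Rps12 and Rpl37a. The part of such copies in the near-zero rows was not tested. For these 4, the table holds rows of near-identical copies, Gm15772 for Rpl26 (99.5%), Gm12191 for Rpl30 (99.7%), Rpl34-ps1 for Rpl34 (99.4%) and Rps27rt for Rps27 (100%), and all of these rows hold 0 counts in every library. Elsewhere copies did hold counts. Rpl37rt, a copy of Rpl37, had 577 and 664 counts at 32 weeks, against 573 and 347 at 8 weeks. Gm5148, a copy of Rps23, had 327 and 410 at 32 weeks, against 307 and 249 at 8 weeks. Both were lowest in 8-week replicate 2, as their parent genes were.

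Shared exons add a second uncertainty. Exon bases overlapped another annotated gene in 26 members, and over 20% of them did in Rpl13a, Rpl23a, Rpl31, Rpl35, Rpl5 and Rps25. The largest overlap was that of Rpl35 with Wdr38, at 66.2% of the exon bases. Many members also hold small nucleolar RNAs in their introns.

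Some ribosomal proteins whose names lie outside the choice by symbol were also lowest in 8-week replicate 2. Fau, the ubiquitin-like fusion that yields Rps30, stood at 370 and 426 CPM at 32 weeks, against 350 and 275 CPM at 8 weeks. Rpl36al stood at 277 and 277 CPM at 32 weeks, against 242 and 200.2 CPM at 8 weeks. In both of these the ages did not overlap. Gnb2l1, the scaffold protein Rack1 on the head of the small subunit, stood at 580 and 640 CPM at 32 weeks, against 619 and 388 CPM at 8 weeks. None of these passed the age test (edgeR adjusted p = 0.999 for each).

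Other genes of translation were set beside the ribosomal proteins by the same measures. In the list of snoRNA host genes, most of which also begin with a pyrimidine tract, 15 of 17 had positive fold changes (median 0.28), the median was 0.03 without 8-week replicate 2, and 12 of 17 were lowest in that library. Among nascent chain factors and ribosome partners 13 of 14 were positive (median 0.24, or 0.06 without 8-week replicate 2), and 10 of 14 were lowest there. Tpt1, a translationally controlled protein counted in both lists, stood at 1322 and 1447 CPM at 32 weeks, against 1487 and 550.3 CPM at 8 weeks. Gas5, a snoRNA host with a tract, stood at 324 and 399.8 CPM at 32 weeks, against 326 and 277 CPM at 8 weeks. None of the members of these lists passed the age test.

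The initiation factors leaned less, with 18 of 28 positive, a median of 0.09 and 16 lowest in 8-week replicate 2. Pabpc1, the poly(A)-binding protein whose mRNA has a tract, stood at 1038 and 1184 CPM at 32 weeks, against 1277 and 562 CPM at 8 weeks. As a list, the elongation factors and related genes did not share the order, with 4 of 9 positive, a median of -0.04 and 2 of 9 lowest in 8-week replicate 2. Those 2 were Eef1b2 and Eef1d, which stood 0.75 and 0.28 lower there than in 8-week replicate 1 on the log2 scale (-0.75 and -0.28). Eef1a1, Eef1g, Eef2 and Eef1e1 were also lower in replicate 2 than in replicate 1, while Eif5a, Eef2k and Eefsec were higher. Eef1a1, which brings aminoacyl-tRNA to the ribosome, stood at 3607 and 4153 CPM at 32 weeks, against 4533 and 3650 CPM at 8 weeks. Eef2, the translocase, stood at 1293 and 1668 CPM at 32 weeks, against 1592 and 1460 CPM at 8 weeks. For both, 32-week replicate 3 was the lowest library, with 8-week replicate 2 close to it for Eef1a1.

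Ribosome assembly genes stood apart from the proteins they assemble. Of 48 genes for ribosome biogenesis and RNA polymerase I, 18 had positive fold changes (median -0.10), 14 were lowest in 8-week replicate 2, and the median gene stood 0.08 above its own mean in that library, where the ribosomal protein median was -0.37. Npm1, the nucleolar chaperone nucleophosmin, stood at 285 and 252 CPM at 32 weeks, against 289 and 293 CPM at 8 weeks. The precursor of ribosomal RNA, Rn45s, held 2.24% and 3.38% of counts at 32 weeks, against 3.69% and 1.40% at 8 weeks, and was thus lowest in 8-week replicate 2. The libraries are from a kit that selects polyadenylated RNA in its usual form, and what Rn45s counts measure in them was not tested. In a list of 22 regulators of ribosomal protein mRNAs 11 were positive (median 0.03).

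Genes for mitochondrial proteins were set beside the members as mRNAs outside the cytosolic ribosome. The mitochondrial ribosomal protein genes were far less abundant than the members. They summed to 2592 and 2429 CPM at 32 weeks, against 2417 and 2205 CPM at 8 weeks. Of 77 mitochondrial ribosomal proteins 55 were positive (median 0.13, or 0.06 without 8-week replicate 2), with 42 lowest in 8-week replicate 2 and a median of -0.11 in that library. Of 74 nuclear oxidative phosphorylation subunits 56 were positive (median 0.13, or 0.11 without 8-week replicate 2), with 37 lowest in 8-week replicate 2. Whether the lists differ from the ribosomal proteins was not tested.

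**Figure D5:**
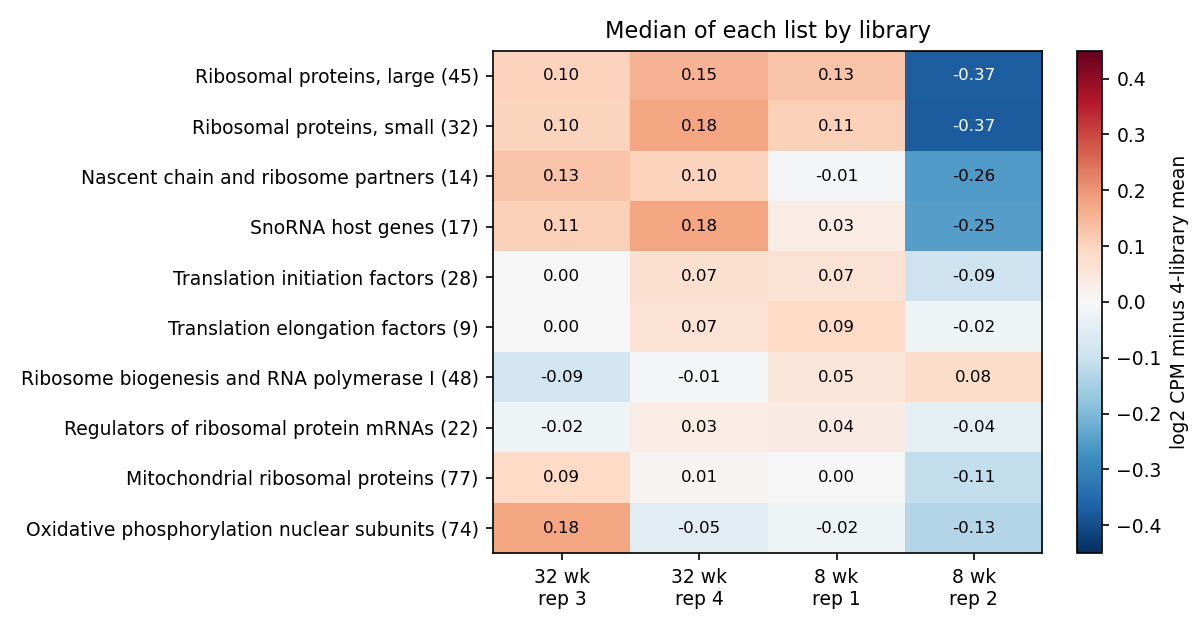
Median over each gene list of log2 CPM minus the gene's own 4-library mean, 1 column per library with 32 weeks left of 8 weeks. Ribosomal proteins of both subunits are at -0.37 in 8-week replicate 2, snoRNA hosts and nascent chain factors at -0.249 and -0.255, and ribosome biogenesis genes at 0.08.

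Most markers of immune cells were lowest in 8-week replicate 2 as well. All 7 tested B and plasma cell markers were lowest there. These 7 summed to 1341 and 1513 CPM at 32 weeks, against 1691 and 575 CPM at 8 weeks. No marker of the list was at 0 in every library. Jchain, the joining chain of secreted IgA, stood at 512 and 799 CPM at 32 weeks, against 920.2 and 73.7 CPM at 8 weeks. Macrophage and dendritic cell markers summed to 218 and 275 CPM at 32 weeks, against 278 and 196 CPM at 8 weeks, with 6 of 7 lowest in 8-week replicate 2. The 5 tested T and NK cell markers, of 8 in the list, summed to 4.36 and 7.62 CPM at 32 weeks, against 9.89 and 4.14 CPM at 8 weeks. Duct markers ran the other way, at 178 and 180 CPM at 32 weeks, against 153 and 458 CPM at 8 weeks, with 0 of 4 lowest in 8-week replicate 2. Of the acinar lists, 3 of 5 mucous markers and 0 of 4 serous and demilune markers were lowest in 8-week replicate 2. The median mucous marker stood 0.46 below its own 4-library mean there (-0.46), and the median serous and demilune marker 0.40 above it. For macrophage and dendritic cell markers that median was -0.41. Other lists were mixed, with 1 of 4 myoepithelial, 2 of 4 fibroblast, 2 of 3 endothelial and 0 of 1 tested skeletal muscle markers lowest there. The part of these cells in the ribosomal protein values was not tested.

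Short mRNAs were also set apart by length. The length was that of the longest annotated coding sequence, which may exceed that of the usual form. Among members with a coding sequence of up to 600 bases the median of 8-week replicate 2 minus replicate 1 was -0.53 (50 genes), and among longer ones it was -0.31 (26 genes). Among other genes the medians were -0.07 for those of up to 600 bases (1513 genes) and 0.02 for longer ones (10566 genes). The member median was thus the lower in either length class. For the same difference, the 36 tested members with a tract scored in the window had a median of -0.49 (range -1.25 to 0.17). The 21 without one had a median of -0.48 (range -1.07 to 0.35). A run was scored anywhere in the window, also well upstream of the annotated start. The split therefore does not show which mRNAs begin with a tract. Whether such tracts bear on the difference at 8 weeks was not tested. Across 76 members the difference at 8 weeks had a Spearman correlation of 0.13 with coding length, 0.19 with its GC content and 0.16 with mean log2 CPM. These points share their libraries, and the values are a description with no test.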

How the data were processed

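Counts of sequencing reads per gene were deposited by the authors as whole numbers with no normalization, 1 column per library. Per the labels' protocols, glands were frozen, RNA was taken up in Trizol and libraries were built with an Illumina TruSeq RNA kit. Per the submitters' processing notes, reads were aligned with STAR to mm9. The sources used here do not give the counting tool, the annotation or the strand setting, so overlapping and antisense genes cannot be separated.

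The counts were analysed in R 4.3.3 with edgeR 4.0.16: TMM scaling, the default low-count filter, the quasi-likelihood test with age as the only term, and p-values adjusted by Benjamini-Hochberg across all 12810 genes tested, with a threshold of 0.05. Log2 fold changes are 32 weeks over 8 weeks. Log2 values of single libraries carry a prior count of 2. DESeq2 1.42.0, limma-voom (limma 3.58.1), other scalings and filters, and each library left out in turn were the alternatives, and the test was checked on simulated counts. Levels per length, positions and overlaps come from GENCODE vM1 on NCBIM37, the assembly mm9 names, and copies of coding sequences were searched there with blastn 2.17.0. Promoter windows are RefSeq's on GRCm38.p6, and positions on the 2 builds must not be mixed.

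Named members were the 5 highest per length and the 4 highest and 4 lowest fold changes in each subunit, every negative fold change, every paralog with its parent and every member under the filter. Members with the widest gap at 8 weeks, other members and the printed windows were chosen after their values were seen. The members and all gene lists were chosen with earlier results of these data known.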

Additional observations from a re-analysis of the deposited data

How the results depend on the processing

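No ribosomal protein gene was called under RLE size factors, total counts only, other sets of genes for the scaling, other low-count filters, DESeq2 or limma-voom, and leaving out single libraries gave 0 to 1. Over all genes, 10 were called with total counts only, 7 with no low-count filter, 3 by DESeq2 and 6 to 285 with a library left out. With a library left out, the median log2 fold change of the members ran between 0.013 and 0.519 and the positive ones between 41 and 73. With total counts only the median was 0.152, and 67 members were lowest in 8-week replicate 2. The other scalings and filters gave 71 or 72.

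Without the 10 most abundant genes in the denominator, the ribosomal protein share was 8.05% and 8.73% at 32 weeks, against 8.465% and 6.47% at 8 weeks. A further setting left out Rps27a, Rpl36a and every member whose symbol ends in l, l1 or x. These include Rps4x, the X-linked parent gene. The small over large ratio was then 0.5803 and 0.593 at 32 weeks, against 0.5742 and 0.574 at 8 weeks.

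Of the 30 named members that were tested, several changed sign. With total counts only the log2 fold change was -0.012 for Rps3 and -0.071 for Rpl3, and limma-voom gave 0.076 for Rpl22l1. With a library left out, the log2 fold changes ran between -0.027 and 1.01 for Rpl12, -0.27 and 0.20 for Rpl4, -0.54 and 0.71 for Rpl22l1, and -0.048 and 0.019 for Rpl15. They ran between -0.022 and 0.47 for Rps23, -0.003 and 0.497 for Rps26, -0.115 and 0.057 for Rps6, -0.076 and 0.235 for Rps3, and -0.071 and 0.296 for Rps7. They ran between -0.041 and 0.324 for Rpl7, -0.15 and 0.71 for Rpl22, -0.058 and 0.636 for Rps4x, and -0.105 and 0.116 for Rpl3. The cause was not tested, beyond the use of fewer libraries.

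No paired analysis was possible because the 2 ages share no replicate number. With 2 libraries an age, single genes carry wide intervals, and counts of 3 or fewer lie at or under the floor set here.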
